A study of Mus musculus with 2 samples.

Results

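The 40 genes described here take fatty acids into heart cells and oxidise them, from uptake at the cell surface to the transfer of electrons towards the respiratory chain. They were chosen by name for their place in the pathway, by a rule that uses no measured value though earlier results of these data were known, and all 40 were found among 55536 annotated genes, of which 21938 were nuclear protein-coding genes. Total RNA was sequenced from heart tissue of 2 female mice of the B6CASTF1/J strain, an F1 hybrid of C57BL/6J and CAST/EiJ, at an age of 2 months. Both mice form 1 group, no treatment or mutation is named for them, and each gave 1 library, made from 300 ng of RNA depleted of ribosomal RNA, with synthetic ERCC transcripts spiked in. The labels number them as biological replicates 2 and 1 (called animal 2 and animal 1 here) but give both the same donor label, so a p-value below measures only how far these 2 libraries differ. Gene reads came to 41790009 in animal 2 and 41862417 in animal 1.

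Fatty acids enter the cardiomyocyte through CD36 and transport proteins, are bound by FABP3 in the cytosol and are linked to coenzyme A by acyl-CoA synthetases. The carnitine shuttle moves the acyl groups into mitochondria, where each turn of beta-oxidation removes an acetyl-CoA through a first dehydrogenation, a hydration, a second dehydrogenation and a thiolysis. The adult heart is known for drawing most of its ATP from this pathway, which malonyl-CoA restrains at the carnitine palmitoyltransferase 1 step.

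The tissue label was checked against marker genes. The 6 cardiomyocyte markers summed to 29946 TPM in animal 2 and 25829 TPM in animal 1, led by Myh6 (alpha myosin heavy chain) with 8371 TPM in animal 2 and 7602 TPM in animal 1. TPM is a length-corrected share of all transcripts of a library. The 5 liver markers summed to 0.58 TPM in animal 2 and 0.81 TPM in animal 1, with Fgb and Serpina1c at 0 reads in both; 3 reads, the upper limit that a count of 0 allows, are 0.0718 CPM in animal 2 and 0.0717 CPM in animal 1, where CPM scales gene reads to a common total. White adipocyte markers summed to 59.8 TPM in animal 2 and 23.2 TPM in animal 1 over 6 genes. In bulk tissue, fewer cells of a type and less RNA per cell cannot be told apart.

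The pathway was transcribed at high levels. The 40 genes summed to 10418 TPM in animal 2 and 8773 TPM in animal 1, a mean of 9596 ± 1163 TPM (SD, n = 2). That was 2.31% of nuclear protein-coding TPM in animal 2 and 2.29% in animal 1, so the share of protein-coding transcripts was nearly the same in both hearts. The median gene of the pathway stood at 115 TPM in animal 2 and 97.2 TPM in animal 1, while the median of 13654 nuclear protein-coding genes with at least 20 reads was 6.60 TPM in animal 2 and 5.65 TPM in animal 1. By mean TPM, 12 of the 40 genes ranked in the top 1% of nuclear protein-coding genes and 26 in the top 5% (1096 genes). At the other end, 6 genes stayed below 10 TPM in both animals.

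**Figure D1:**
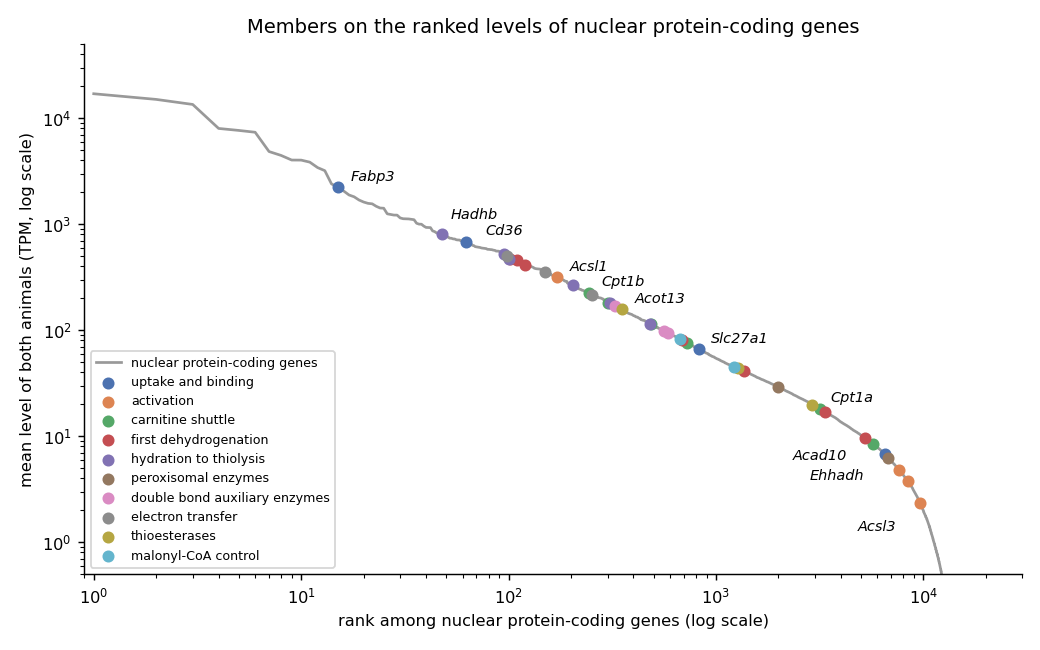
Mean level of both animals (TPM, log scale) against rank among nuclear protein-coding genes (log scale). The grey line holds all such genes above 0 and the points the 40 pathway genes, coloured by step; Fabp3 stands at rank 15, and Acsl3, the lowest, at rank 9616.

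By step, uptake and binding held the most transcripts, with 3257 TPM in animal 2 and 2720 TPM in animal 1 over 4 genes, 31.3% of the pathway's sum in animal 2 and 31.0% in animal 1. Hydration to thiolysis followed with 2551 TPM in animal 2 and 2164 TPM in animal 1 over 6 genes. The first dehydrogenation held 1599 TPM in animal 2 and 1375 TPM in animal 1 over 7 genes. Electron transfer reached 1163 TPM in animal 2 and 974 TPM in animal 1 with 3 genes. The carnitine shuttle, with 683 TPM in animal 2 and 563 TPM in animal 1 over 6 genes, and activation, with 353 TPM in animal 2 and 298 TPM in animal 1 over 4 genes, held less. The 2 peroxisomal enzymes together held 0.363% of the sum in animal 2 and 0.373% in animal 1. The share that differed most between the animals was that of the first dehydrogenation, with 15.3% in animal 2 and 15.7% in animal 1.

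**Figure D2:**
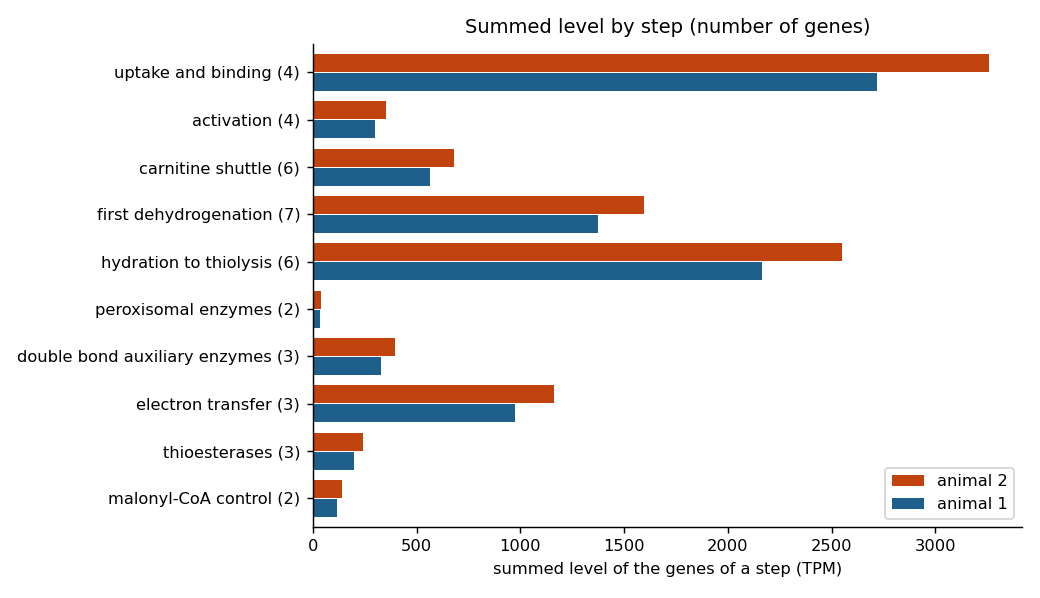
Summed level of the genes of each step (TPM), with animal 2 above animal 1 and the number of genes in brackets. Uptake and binding is the longest pair of bars, with 3257 TPM in animal 2 and 2720 TPM in animal 1; the peroxisomal enzymes are the shortest, with 37.8 TPM in animal 2 and 32.75 TPM in animal 1.

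Among the uptake genes, Fabp3, the cytosolic fatty acid binding protein of heart and skeletal muscle (chr4:130308595-130315463, + strand, mm10 as are all positions here), had 2448 TPM in animal 2 and 2021 TPM in animal 1. It alone made up 23.5% of the pathway's sum in animal 2 and 23.0% in animal 1. Cd36, the fatty acid translocase of the plasma membrane (chr5:17781690-17888801, - strand), had 732 TPM in animal 2 and 630.0 TPM in animal 1. It ranked 62nd of the nuclear protein-coding genes. Slc27a1, which encodes the fatty acid transport protein FATP1 (chr8:71568882-71587302, + strand), had 69.8 TPM in animal 2 and 62.95 TPM in animal 1. Its relative Slc27a4 (FATP4) had 7.29 TPM in animal 2 and 6.27 TPM in animal 1, so Slc27a1 stood at 9.57 times its level in animal 2 and 10.04 times in animal 1. That ratio includes non-coding transcripts. Coding transcripts held 41.97% of Slc27a1's TPM in animal 2 and 41.6% in animal 1. For Slc27a4 they held 98.9% in animal 2 and 94.1% in animal 1.

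Activation rested almost entirely on Acsl1, the main long-chain acyl-CoA synthetase of heart (chr8:46471037-46536051, + strand), with 340.2 TPM in animal 2 and 289 TPM in animal 1. The other members of the family were low. Acsl5 (chr19:55251938-55297720, + strand) had 5.48 TPM in animal 2 and 4.21 TPM in animal 1. Acsl4, which prefers arachidonic acid, had 4.11 TPM in animal 2 and 3.49 TPM in animal 1. Acsl3 was the lowest of all 40 genes, with 2.89 TPM in animal 2 and 1.75 TPM in animal 1. Acsl1 was 62.1 times Acsl5 in animal 2 and 68.5 times in animal 1. Acsl5 overlaps Zdhhc6 on the opposite strand, and Zdhhc6 was assigned 599 reads in animal 2 and 556 in animal 1, while Acsl5 was assigned 599 in animal 2 and 475 in animal 1. Acsl3 overlaps Utp14b on its own strand, which was assigned 93 reads in animal 2 and 85 in animal 1 (Acsl3 had 233 in animal 2 and 193 in animal 1). No source used here states whether strand entered the counting, which bears on Acsl5 and Zdhhc6. Strand cannot part Acsl3 from Utp14b, as both lie on the same one. The levels of Acsl5 and Acsl3 are therefore uncertain.

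In the carnitine shuttle the muscle form of carnitine palmitoyltransferase 1, the malonyl-CoA sensitive entry step, prevailed. Cpt1b (chr15:89416405-89425863, - strand) had 248 TPM in animal 2 and 202 TPM in animal 1, whereas Cpt1a, the form known from liver, had 19.4 TPM in animal 2 and 16.9 TPM in animal 1. Cpt1b was 12.8 times Cpt1a in animal 2 and 11.9 times in animal 1; by a second quantification, deposited for the same libraries, it was 10.6 times in animal 2 and 10.03 times in animal 1. The coding sequences of the 2 genes were 67.7% identical with no identical run over 20 bases, and none of the 100-base windows of their main transcripts was shared. Crat, which moves short acyl groups between carnitine and coenzyme A (chr2:30400471-30415813, - strand), had 199 TPM in animal 2 and 165 TPM in animal 1. Cpt2, which returns the acyl group to coenzyme A inside the mitochondrion, had 124 TPM in animal 2 and 104 TPM in animal 1. Slc25a20, the carnitine-acylcarnitine carrier, had 83.4 TPM in animal 2 and 68.05 TPM in animal 1. The plasma membrane carnitine transporter gene Slc22a5 was the lowest of the shuttle, with 9.21 TPM in animal 2 and 7.76 TPM in animal 1.

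The first dehydrogenation showed 3 acyl-CoA dehydrogenases at like levels. Acadvl (very long chains, chr11:70010183-70015411, - strand) had 501 TPM in animal 2 and 443 TPM in animal 1. Acadm (medium chains, chr3:153922357-153944632, - strand) had 495 TPM in animal 2 and 414 TPM in animal 1. Acadl (long chains) had 443 TPM in animal 2 and 382 TPM in animal 1. Neighbouring means among these 3 lay within their SDs, and Acadl turned from 0.896 times Acadm in animal 2 and 0.921 times in animal 1 to 1.13 times in animal 2 and 1.11 times in animal 1 in the second quantification, so their order is not settled. Acads (short chains) stood lower, at 87.5 TPM in animal 2 and 74.1 TPM in animal 1. Acad11 had 43.9 TPM in animal 2 and 38.03 TPM in animal 1. Acad9, which also serves in complex I assembly, had 17.7 TPM in animal 2 and 16.3 TPM in animal 1. Acad10 was the lowest dehydrogenase, with 10.9 TPM in animal 2 and 8.31 TPM in animal 1.

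Of the later steps, Hadhb, the thiolase subunit of the mitochondrial trifunctional protein (chr5:30155248-30184593, + strand), had 871 TPM in animal 2 and 741 TPM in animal 1. Hadha, which carries its hydratase and long-chain dehydrogenase activities (chr5:30118304-30155162, - strand), had 517 TPM in animal 2 and 429.8 TPM in animal 1. In reads the subunits were almost equal, with 46511 for Hadhb and 46662 for Hadha in animal 2 and 43660 for Hadhb and 43361 for Hadha in animal 1. Per length Hadhb was 1.69 times Hadha in animal 2 and 1.72 times in animal 1. In the second quantification it was 2.49 times in animal 2 and 2.45 times in animal 1. These ratios include the non-coding transcripts of both genes, given below, so the size of the difference is not settled. Both genes start from 1 short stretch, 86 bases apart and on opposite strands. Because the genes share this start region and their read counts run so close, the 85 bases between the annotated starts are shown, 5′ to 3′ on the + strand from the RefSeq promoter table of GRCm38.p6 (chr5:30155163-30155247), with the 9 CpG dinucleotides in capitals. They held 69.4% G or C.
Hadha-Hadhb: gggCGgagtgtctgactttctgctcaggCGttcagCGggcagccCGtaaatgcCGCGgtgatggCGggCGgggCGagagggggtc

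Acaa2, the thiolase for medium and long chains (chr18:74779197-74806208, + strand), had 560.4 TPM in animal 2 and 477 TPM in animal 1. Hadh, the short-chain hydroxyacyl-CoA dehydrogenase, had 285 TPM in animal 2 and 246 TPM in animal 1. Echs1, the short-chain enoyl-CoA hydratase, had 192 TPM in animal 2 and 167 TPM in animal 1. Acat1, the acetoacetyl-CoA thiolase (chr9:53580522-53610382, - strand), had 126 TPM in animal 2 and 103.1 TPM in animal 1 in the gene table but 268 TPM in animal 2 and 242 TPM in animal 1 in the second quantification, 2.23 times the mean and the only pathway gene over 2-fold. Of the 2 peroxisomal enzymes, the thiolase Acaa1a (chr9:119339676-119350299, + strand) had 31.8 TPM in animal 2 and 26.2 TPM in animal 1. The bifunctional enzyme Ehhadh (chr16:21761287-21787807, - strand) had 5.98 TPM in animal 2 and 6.51 TPM in animal 1. It was the only one of the 40 whose TPM was lower in animal 2. Acaa1a overlaps Myd88 on the opposite strand, which was assigned 334 reads in animal 2 and 281 in animal 1, at most 18.6% of the Acaa1a reads.

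The enzymes that deal with double bonds of unsaturated fatty acids stood in the middle of the pathway. Eci1, an enoyl-CoA isomerase (chr17:24426641-24439348, + strand), had 185 TPM in animal 2 and 152 TPM in animal 1. Decr1, the dienoyl-CoA reductase (chr4:15917240-15945507, - strand), had 107 TPM in animal 2 and 91.4 TPM in animal 1. A second isomerase, Eci2, had 102.8 TPM in animal 2 and 85.7 TPM in animal 1. Its mean and that of Decr1 lay within their SDs. Etfa and Etfb encode the subunits of the electron transfer flavoprotein, and Etfdh the oxidoreductase that passes its electrons to ubiquinone. Etfb (chr7:43444083-43457800, + strand) had 549.6 TPM in animal 2 and 449 TPM in animal 1. Etfa (chr9:55454508-55512243, - strand) had 383 TPM in animal 2 and 329 TPM in animal 1. Etfdh was the lowest of the 3, with 231 TPM in animal 2 and 196 TPM in animal 1. Etfb was 1.43 times Etfa in animal 2 and 1.36 times in animal 1.

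Acyl-CoA thioesterases release free fatty acids from coenzyme A. Acot13 (chr13:24817948-24831540, - strand) led them with 169 TPM in animal 2 and 145 TPM in animal 1. The mitochondrial Acot2 (chr12:83987861-83993873, + strand) had 49.1 TPM in animal 2 and 37.85 TPM in animal 1. The cytosolic Acot1 (chr12:84009490-84018371, + strand) had 23.9 TPM in animal 2 and 15.8 TPM in animal 1. Acot1 and Acot2 lie side by side and are close copies: 1178 of 1236 aligned coding bases of Acot1-201 and Acot2-201 were identical (95.3%), with an identical run of 273 bases, and 16.5% of the 100-base windows of Acot1-201 were also found in Acot2-201. Reads from such windows match both genes, so the split between the 2 is uncertain, although the spread of read assignment that the gene table gives was at most 2.54% of the reads for Acot1 and 0.63% for Acot2. To show what lets a read tell the copies apart, the 120 coding bases with the most differences, 14, are given 5′ to 3′ from the GENCODE M21 transcripts, with the differing bases in capitals (chr12:84016886-84017005 for Acot1 and chr12:83992608-83992727 for Acot2, both + strand). The median window of this length held 4 differences.
Acot1-201: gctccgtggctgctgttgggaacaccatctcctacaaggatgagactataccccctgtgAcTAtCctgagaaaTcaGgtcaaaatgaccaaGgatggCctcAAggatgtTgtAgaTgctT
Acot2-201: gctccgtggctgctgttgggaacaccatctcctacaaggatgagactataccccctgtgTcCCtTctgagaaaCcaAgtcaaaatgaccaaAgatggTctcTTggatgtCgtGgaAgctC

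The coding sequence of Acot2-201 also opens with 123 bases (41 codons) that have no counterpart in Acot1-201. This stretch, from the same source (chr12:83987902-83988024, + strand), is shown because Acot2 is known to be the mitochondrial copy and its amino-terminal end is where it departs from the cytosolic one; the start codon is in capitals.
Acot2-201 leader: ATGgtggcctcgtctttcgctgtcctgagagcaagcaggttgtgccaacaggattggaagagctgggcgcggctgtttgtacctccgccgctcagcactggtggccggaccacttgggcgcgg

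Malonyl-CoA, the inhibitor of carnitine palmitoyltransferase 1, is made at the mitochondrial surface by the product of Acacb and removed by that of Mlycd. Acacb (chr5:114146535-114250761, + strand) had 90.1 TPM in animal 2 and 76.6 TPM in animal 1. Mlycd (chr8:119394878-119411102, + strand) had 48.4 TPM in animal 2 and 42.1 TPM in animal 1. Acacb was 1.86 times Mlycd in animal 2 and 1.82 times in animal 1. It was 10.3 times Acaca, the cytosolic form that feeds fatty acid synthesis, in animal 2 and 12.2 times in animal 1. The scaled ratio of Acaca between the animals was 1.213 (1.122 to 1.311), which passed the exact test described with the comparison of the animals.

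**Figure D3:**
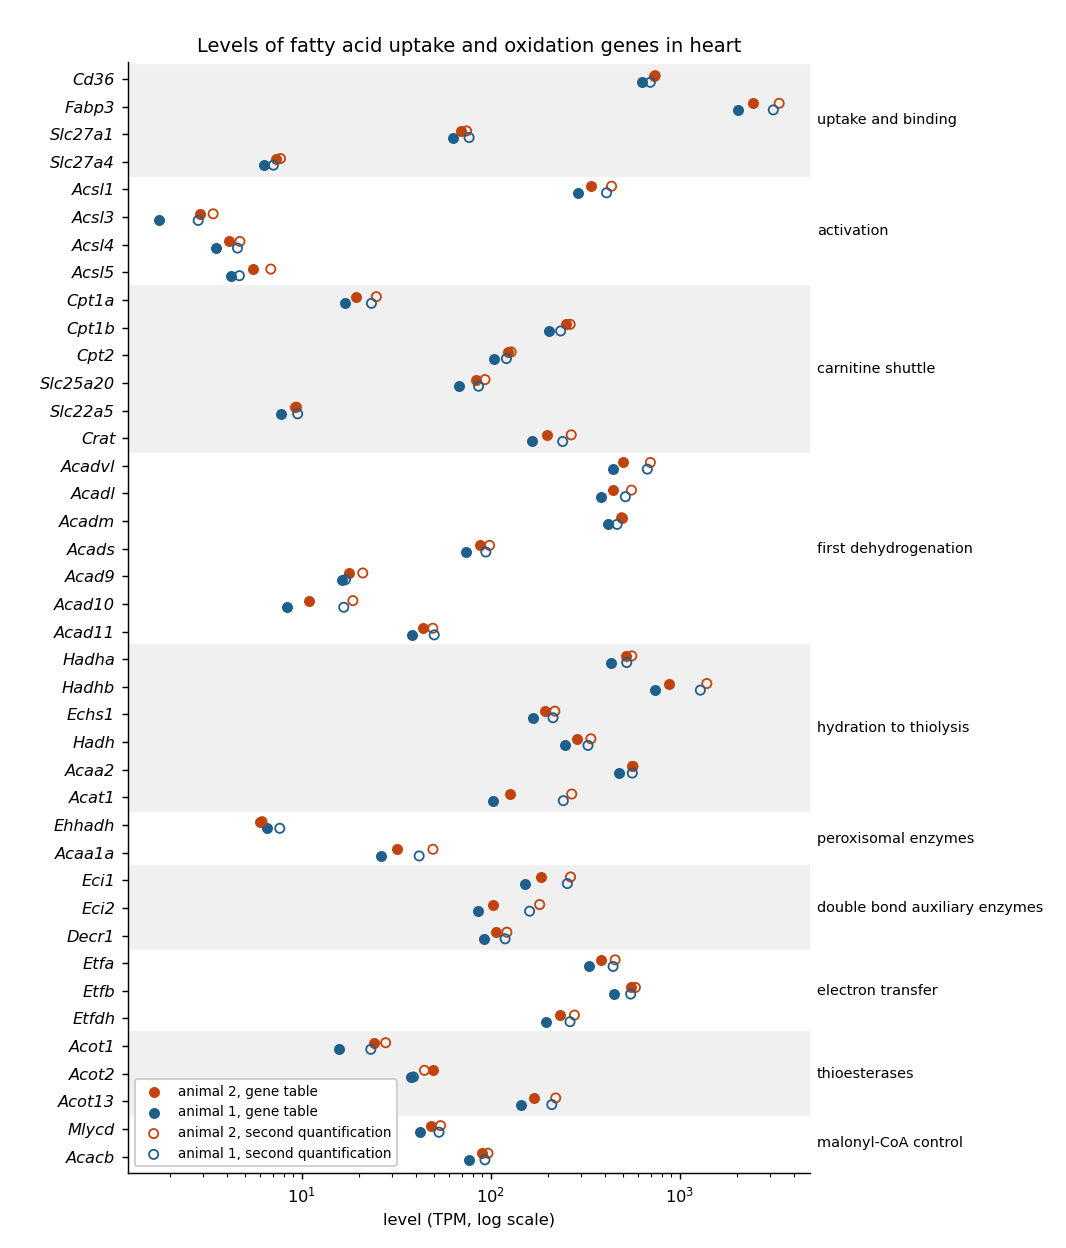
Level of each of the 40 genes (TPM, log scale) by step, with animal 2 drawn above animal 1; filled points are the gene table and open points the second quantification. The points of 1 gene lie close together against the spread between genes, with Acat1 the widest gap between quantifications (126 and 268 TPM in animal 2).

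The order of levels within a step was compared between neighbours in 4 measures, 2 animals by 2 quantifications. Of 30 neighbour pairs, 26 kept their order in all 4. The exceptions were Cpt1b and Crat, Acadm and Acadl, Echs1 and Acat1, and Decr1 and Eci2, each with the same order in both animals but opposite order in the 2 quantifications. In 6 pairs the means lay within the SDs. The second quantification gave higher TPM for 39 of the 40 genes, with a median of 1.21 times the gene table, and the same held for 11233 nuclear protein-coding genes at 1 TPM or more (median 1.196 times).

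Most of the pathway's RNA was assigned to coding transcripts. The annotation lists 229 transcripts for the 40 genes, between 1 and 14 each, and in 21 genes over 90% of TPM came from coding transcripts in both animals and both transcript tables. The exceptions touch central enzymes. In the first transcript table retained-intron transcripts took 28.3% of Acadm's TPM in animal 2 and 29.2% in animal 1. The second gave 1.93% in animal 2 and 3.88% in animal 1. For Acadvl they took 15.3% in animal 2 and 16.5% in animal 1 in the first table. The second gave 39.2% in animal 2 and 37.0% in animal 1. For Hadha, the processed transcript Hadha-201 (no coding sequence annotated) took 64.6% of the gene's TPM in animal 2 and 65.1% in animal 1, and the coding Hadha-205 28.1% in animal 2 and 28.0% in animal 1. The second transcript table gave Hadha-201 74.8% in animal 2 and 74.97% in animal 1. These shares of Hadha were almost the same in both hearts.

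In Hadhb the retained-intron transcript Hadhb-208 had 22.2% in animal 2 and 22.6% in animal 1 in the first table, but 51.6% in animal 2 and 49.9% in animal 1 in the second. Hadhb-208 is 507 bases long and held 2631 reads in animal 2 and 2531 in animal 1 in the first table, against 24251 in animal 2 and 25477 in animal 1 for the coding Hadhb-201 of 2033 bases. A short transcript thus reached a large TPM share from few reads. A retained-intron transcript of Acad10, 869 bases long, likewise had 75.3% of Acad10's TPM in animal 2 and 66.7% in animal 1 from 210 reads in animal 2 and 158 in animal 1. The coding share of Slc27a1 was 41.97% in animal 2 and 41.6% in animal 1, with most of the rest in retained-intron transcripts.

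The 2-fold gap of Acat1 between quantifications lay in 1 transcript. Acat1-203, a processed transcript of 500 bases, had 2.1 TPM in animal 2 and 1.42 TPM in animal 1 in the first transcript table but 147 TPM in animal 2 and 129 TPM in animal 1 in the second. The coding Acat1-201 hardly moved, with 123 TPM in animal 2 and 102 TPM in animal 1 in the first table and 119.8 TPM in animal 2 and 112 TPM in animal 1 in the second. Between these tables the processed Acadl-202 rose from 11.02 to 115.6 TPM in animal 2 and from 18.93 to 95.46 TPM in animal 1. The retained-intron Acadm-207 fell from 91.51 TPM in animal 2 and 73.98 TPM in animal 1 to 0 in both. The coding Acadl-201 went from 431.98 to 438.4 TPM in animal 2 and from 362.6 to 418.9 TPM in animal 1. The coding Acadm-201 went from 352.96 to 418.5 TPM in animal 2 and from 292.35 to 387.7 TPM in animal 1. The 2 tables named the same leading transcript for 30 of the 37 genes with several transcripts, and another one for Cd36, Crat, Acad11, Hadhb, Acat1, Eci1 and Eci2. For Cd36 all transcripts with reads were coding, and the leading one was Cd36-203 in the first table (40.7% in animal 2 and 39.4% in animal 1) and Cd36-202 in the second (48.3% in animal 2 and 49.7% in animal 1).

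**Figure D4:**
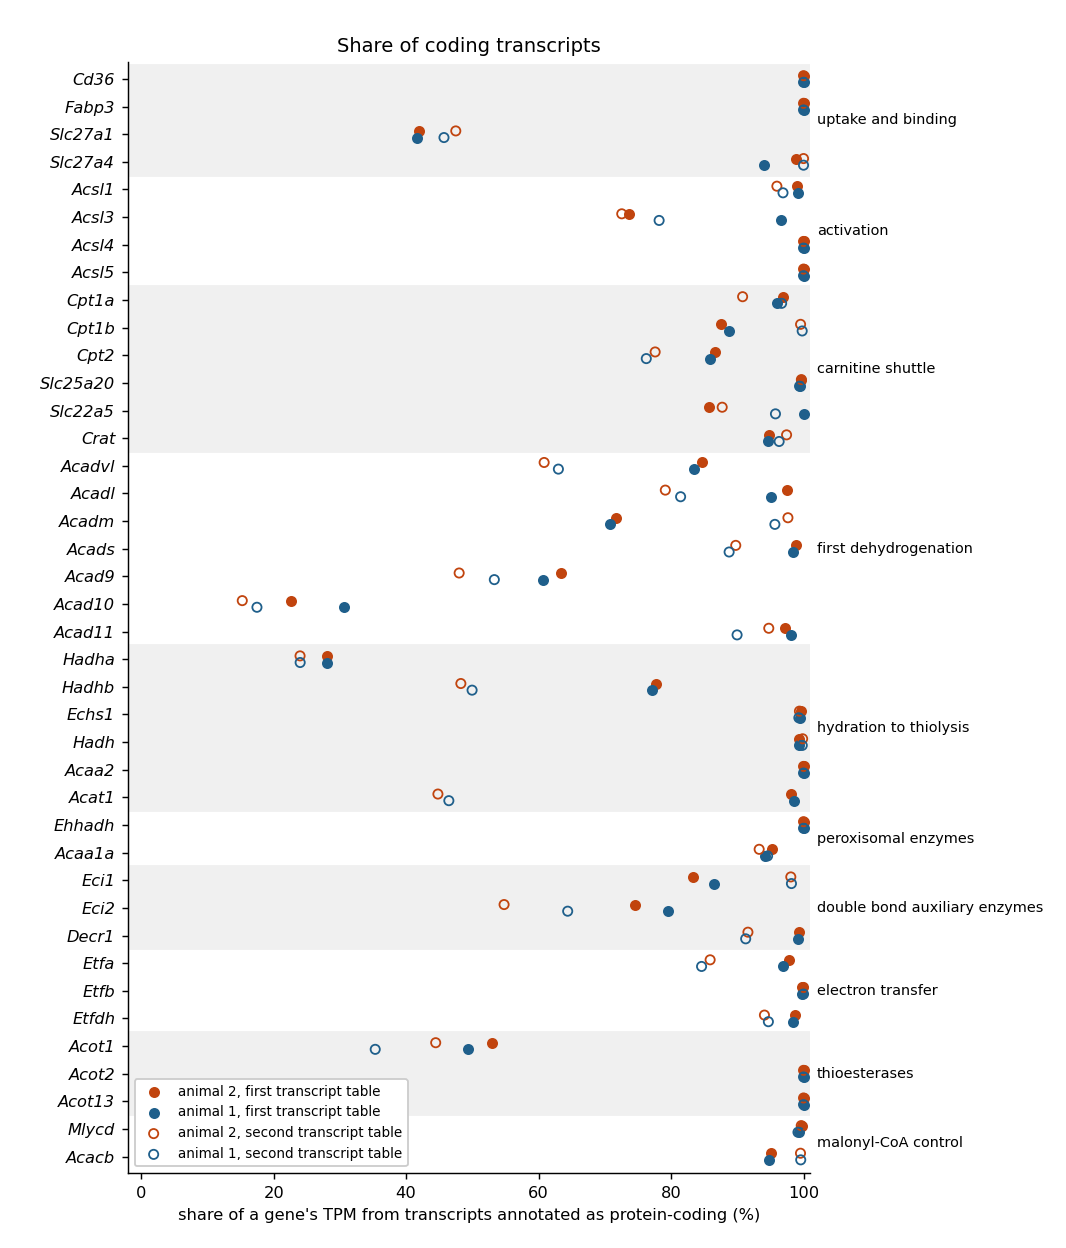
Share of each gene's TPM from transcripts annotated as protein-coding (%), with animal 2 drawn above animal 1; filled points are the first and open points the second transcript table. Most genes sit near 100%, while Acad10, Hadha, Slc27a1 and Acot1 are below 60% in every measure.

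The hearts of the 2 animals were nearly alike in this pathway. TPM was higher in animal 2 for 39 of the 40 genes, with a median log2 ratio of 0.24, but the median over all 16133 tested genes was 0.22, and 7SL RNA, the RNA of the signal recognition particle, made up 13.1% of TPM in animal 2 and 21.3% in animal 1. Animals were therefore compared by reads scaled with the trimmed mean of M values. On that scale the pathway's median log2 ratio of animal 2 over animal 1 was 0.01, from -0.35 for Ehhadh to 0.26 for Acsl5, with 24 genes above 0 and 16 below; over all tested genes the median was -0.00240. Of the 40 genes, 34 lay within 1.1-fold (85%), against 75.7% of 9269 nuclear protein-coding genes with at least as many reads as the lowest pathway gene. Only 626 nuclear protein-coding genes reached the pathway's median of 12344 reads over both animals. Counting error widens ratios at fewer reads, so the 2 shares were not taken at like depth.

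By a two-sided exact binomial test of the 2 libraries, adjusted by Benjamini-Hochberg over all tested genes, 0 of the 40 genes differed at least 2-fold, where 210 of 16133 genes did (1.3%, with 0.446% higher in animal 2 and 0.855% higher in animal 1). The same count of 0 was found by total counts, by DESeq2 size factors, without a count filter and in the second quantification, and 15 of the 40 (37.5%) had an unadjusted p of at most 0.05 in the exact test, against 3449 of all tested genes (21.4%). With no fold minimum 10 of the 40 differed (25%), 7 higher in animal 2 and 3 higher in animal 1, against 1798 of all tested genes (11.1%, with 6.5% higher in animal 2 and 4.65% higher in animal 1). With more reads, smaller differences pass such a test, and the pathway's genes carry many. Among nuclear protein-coding genes with at least the pathway's median of 12344 reads over both animals, 237 of 626 (37.9%) passed, and of the 20 pathway genes at that depth 5 did (25%). Scaled by total counts, 27 genes passed, 26 higher in animal 2 and 1 higher in animal 1. That scaling moved the median log2 ratio of all tested genes to 0.077 and turned the sign of 10 of the 40 log2 ratios, which left 34 above 0 and 6 below.

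The differences that passed were small in the abundant genes. Fabp3 counted 59114 reads in animal 2 and 54278 in animal 1, for a scaled ratio of 1.03 (95% interval 1.02 to 1.04; exact binomial test, adjusted p = 2.25e-06). Cpt1b had a ratio of 1.04, Crat of 1.03 and Hadha of 1.02. On the other side Slc27a1 had a ratio of 0.943 and Acadvl of 0.975. Acadvl turned to a ratio of 1.03 when scaled by total counts, and Slc27a1 did not pass there or in the second quantification. Without a count filter neither of them passed (adjusted p = 0.0595 for Slc27a1 and 0.0566 for Acadvl in the exact test).

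Larger ratios belonged to 4 genes of low or middle level. Ehhadh, the peroxisomal enzyme, was assigned 575 reads in animal 2 and 696 in animal 1, which gave a scaled ratio of 0.783 (95% interval 0.70 to 0.88; exact binomial test, adjusted p = 0.000329). Acsl5, with 599 reads in animal 2 against 475 in animal 1, had a ratio of 1.195 (1.06 to 1.351; exact binomial test, adjusted p = 0.0381), with the overlap with Zdhhc6 named above. It did not pass without a count filter (exact test, adjusted p = 0.0539). Acot1, with 925 reads in animal 2 and 743 in animal 1, had a ratio of 1.18 (1.07 to 1.30), and Acot2, with 3436 reads in animal 2 and 2944 in animal 1, of 1.11 (1.05 to 1.16). For Acot1 the short coding transcript Acot1-202 held 82.9 reads in animal 2 and 30.2 in animal 1, and the longer Acot1-201 572 in animal 2 and 501 in animal 1. The processed transcript Acot1-204 held 261 in animal 2 and 207 in animal 1. Ehhadh was the only one of these 4 that was higher in animal 1.

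Marker genes of other cells were compared on the same scale, with no fold minimum unless stated. Of all tested genes, 6.5% passed in favour of animal 2 and 4.65% in favour of animal 1. The share rose to 37.9% of nuclear protein-coding genes with at least 12344 reads over both animals. Some markers carry many reads, such as Col3a1 with 12505 in animal 2 and 9751 in animal 1. The marker counts below were not set against genes of like depth, and a shift of cell types was not tested. Of the 5 white adipocyte markers tested, 4 were higher in animal 2 and none was higher in animal 1; 3 of them were at least 2-fold higher, with ratios of 2.30 for Cfd (adipsin), 2.73 for Adipoq (adiponectin) and 2.49 for Cidec (a lipid droplet protein). The 6th, Lep, had 6 reads in animal 2 and 7 in animal 1. Of the fibroblast markers 4 of 5 were higher in animal 2, with a median log2 ratio of 0.28 over the list, and of the endothelial markers 4 of 6, with a median of 0.14. Cldn5 and Egfl7 (ratio 0.989) were the endothelial markers that did not pass. Of the macrophage markers 2 of 5 passed, both higher in animal 2. Of the brown adipocyte markers tested, 1 of 3 passed, Ucp1 with a ratio of 1.49, while Cidea, the most abundant of them, had a ratio of 1.03. The cardiomyocyte markers went both ways, with Actc1 higher in animal 2 and Myh6, Tnnt2 and Ryr2 higher in animal 1, all by less than 1.1-fold. Of 5 skeletal muscle markers tested, Acta1 was higher in animal 2 (ratio 1.07), and Myh1 had 1 read in animal 2 and 22 in animal 1, a ratio of 0.0632 (0.00104 to 0.267). Ckm, Tnni2 and Tnnt3 did not pass. Myh2, with 0 reads in animal 2 and 18 in animal 1, and Myh4, with 4 in animal 2 and 10 in animal 1, had too few for the test. Acta1 stood at 129 TPM in animal 2 and 103 TPM in animal 1, far above these myosin genes, so its ratio is not read as one of skeletal muscle cells. The part of these cells in the small differences of Acsl5, Acot1, Acot2 and the others was not tested.

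**Figure D5:**
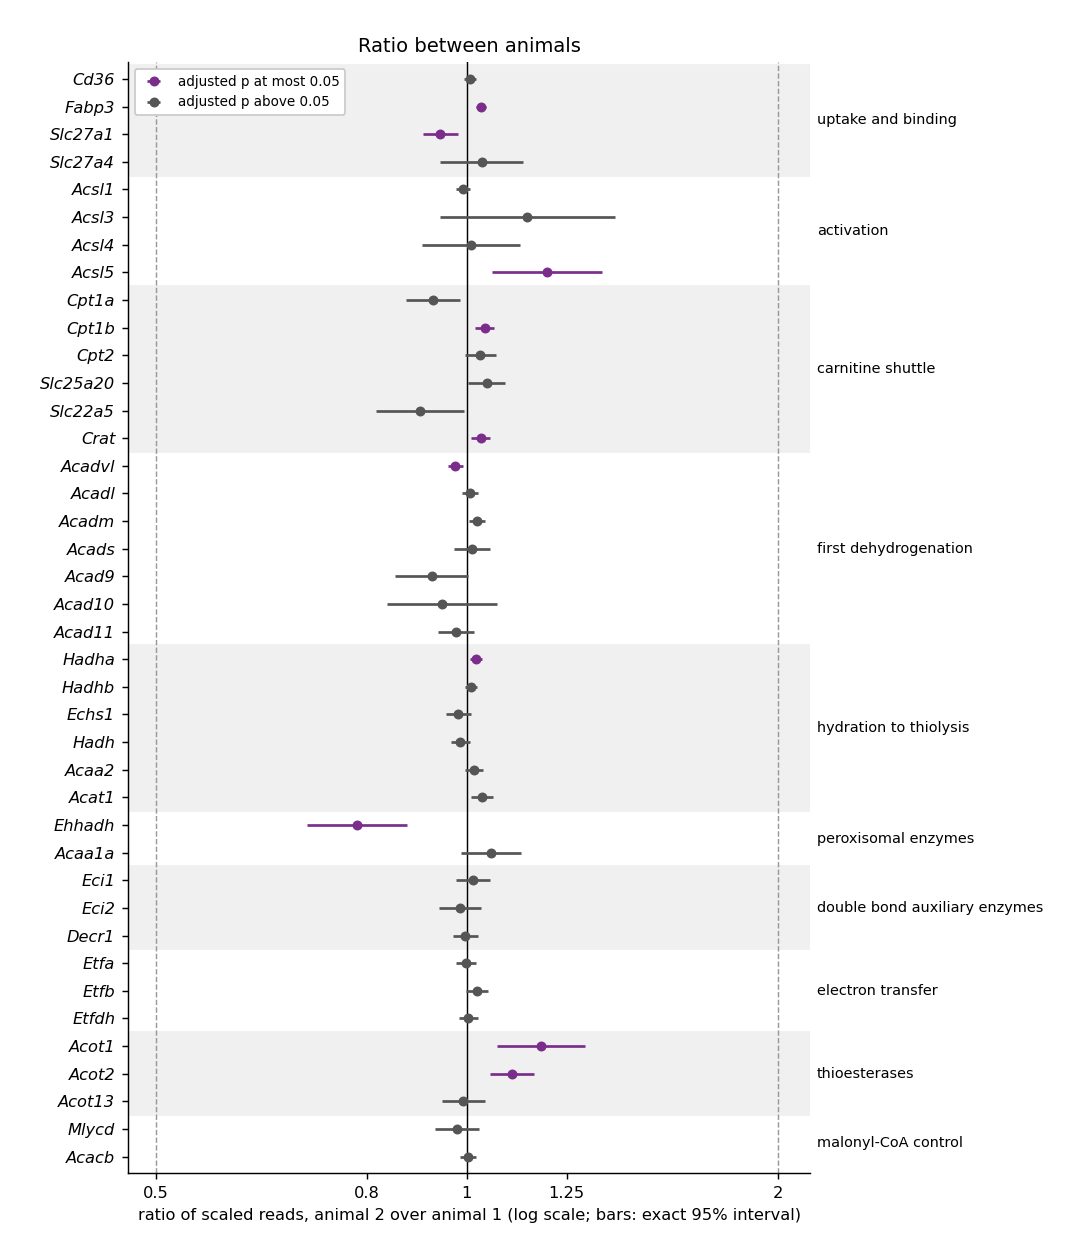
Ratio of scaled reads, animal 2 over animal 1 (log scale), for each gene by step, with its exact 95% interval; purple points have an adjusted p of at most 0.05 and the dashed lines mark 2-fold in either direction. All 40 points lie between the dashed lines, the lowest being Ehhadh at 0.783 and the highest Acsl5 at 1.195.

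The start regions of the genes were read from the RefSeq promoter table, 250 bases before to 50 after each start, which held 33 of the 40. These 33 had 36 windows, and all 27025 genes of the table had 32851. Base content was taken from the first window of each gene, and letters from any of its windows. Shares of genes with given letters thus do not rest on equal numbers of windows per gene. The comparison with all genes was not limited to protein-coding genes or to genes with reads in these hearts. Whether a difference from all genes is particular to this pathway was therefore not tested. The start regions were rich in G and C, with a median of 60.7% and 17 CpG dinucleotides, against 52.7% and 7 over all 27025 genes. Cd36 was the only one of the 33 under 50% G or C (43.0%). Of the 33 genes, 1 held the letters TATAAA on either strand (Acacb), against 15.7% of all genes, and 18 held CCAAT (54.5%, against 41.1% of all). The palindromic motif of the nuclear respiratory factor NRF1, GCGCA followed at once by its reverse complement TGCGC, was found in Acad10 and Etfdh (6.06% of the 33, against 1.07% of all).

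The nuclear receptors PPAR and ERR, which are known to drive many of these genes, bind sites built on AGGTCA. These letters, on either strand, stood in the windows of 6 of the 33 genes (18.2%), against 18.1% of all genes. The longer ERR form TCAAGGTCA, which contains AGGTCA, was in 0 of the 33 (0.466% of all), and AGGTCA repeated in the same direction after 1 base of any kind, which also contains it, was in 0 (0.0481% of all). The 6 stretches of 30 bases are given because receptors of this kind are the known regulators of the pathway, each 5′ to 3′ on the gene's strand with AGGTCA or its reverse complement in capitals. They lie at chr3:153944864-153944893 (- strand) for Acadm, chr5:17836107-17836136 (- strand) for Cd36, chr5:114165538-114165567 (+ strand) for Acacb, chr7:140116487-140116516 (- strand) for Echs1, chr11:70015498-70015527 (- strand) for Acadvl and chr19:3323195-3323224 (+ strand) for Cpt1a, on GRCm38.p6. Those of Cd36, Acacb and Cpt1a lie inside the annotated span of the gene, at RefSeq starts other than its outermost annotated start.
Acadm: gTGACCTtcgggctccggtgacactgggca
Cd36: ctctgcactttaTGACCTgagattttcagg
Acacb: gacttgcctggttttctcctgccTGACCTt
Echs1: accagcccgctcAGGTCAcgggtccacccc
Acadvl: atggatcaccctAGGTCAggtagaatacag
Cpt1a: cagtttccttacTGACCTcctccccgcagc

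A start of another protein-coding gene on the opposite strand lay within 1000 bases for 6 of the 40 genes (15%), against 6.78% of nuclear protein-coding genes. Hadha and Hadhb are each other's partner, so the same start region enters this count under both genes. The others included Crat with Ptpa, Acot13 with Tdp2 and Acad10 with Brap. Ptpa and Tdp2 stayed below the level of their pathway genes in both animals, while Brap had 12.2 TPM in animal 2 and 9.35 TPM in animal 1 beside Acad10 at 10.9 TPM in animal 2 and 8.31 TPM in animal 1.

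The wider pathway was followed with 79 further genes, of which 70 had enough reads for the test and 43 reached a mean of 10 TPM. In the exact binomial test with Benjamini-Hochberg adjustment 0 of the 70 differed at least 2-fold between the animals, and with no fold minimum 6 were higher in animal 2 and 7 higher in animal 1, against 6.5% of all tested genes higher in animal 2 and 4.65% higher in animal 1. Lpl, the lipoprotein lipase that frees fatty acids from circulating triglyceride, had 1595 TPM in animal 2 and 1349.8 TPM in animal 1, second only to Fabp3 among all the genes named here for fatty acid handling. Its endothelial anchor Gpihbp1 had 51.5 TPM in animal 2 and 36.0 TPM in animal 1, a scaled ratio of 1.21 (1.11 to 1.31) that passed the test, and Fabp4, known from adipocytes and capillary endothelium, 260.2 TPM in animal 2 and 208 TPM in animal 1, with a ratio of 1.06 that passed. Lpl itself passed with a ratio of 1.014. Of the endothelial markers 4 of 6 were higher in animal 2 as given above, and their part in these ratios was not tested. Dbi, an acyl-CoA binding protein, had 110.2 TPM in animal 2 and 88.5 TPM in animal 1. Fabp5 had 19.6 TPM in animal 2 and 18.7 TPM in animal 1.

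Peroxisomal and auxiliary oxidation was led by Ech1, a dienoyl-CoA isomerase, with 803 TPM in animal 2 and 648 TPM in animal 1. Phyh, which starts the breakdown of phytanic acid, had 327 TPM in animal 2 and 288 TPM in animal 1. Scp2, Hsd17b4, Abcd3 and Amacr were among the others above 10 TPM, with means from 123 TPM for Scp2 to 13.7 TPM for Amacr. Ech1 passed the test with a ratio of 1.05 and Abcd3 with 0.933. Among other acyl-CoA dehydrogenases and enzymes of branched and odd-chain substrates, Ivd had 157 TPM in animal 2 and 136 TPM in animal 1. Acadsb, Gcdh, Acad12, Acad8, Hsd17b10, Mcee, Mut, Pcca and Pccb had means from 95.1 TPM for Acadsb to 23.0 TPM for Acad8. Acss1 (mean 105 TPM), Acss2 and Acsf3 were the other synthetases above 10 TPM, and the lower Acsm5 passed with a ratio of 0.803. Acot7, Acot11, Acot9, Etfrf1, Flad1, Etfbkmt, Echdc1 and Echdc2 had means up to 39.7 TPM, and of these Acot11 (ratio 0.884) and Echdc2 (ratio 0.792) passed the test, both higher in animal 1.

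Among regulators and genes known to respond to fatty acids, Pdk4, the kinase that restrains glucose oxidation, had 278 TPM in animal 2 and 297 TPM in animal 1, a scaled ratio of 0.826 (0.812 to 0.841). Ucp3, a mitochondrial carrier, had 14.8 TPM in animal 2 and 21.2 TPM in animal 1, a ratio of 0.589 (0.547 to 0.635). Ppargc1a, a coactivator of mitochondrial genes, went the other way with 64.1 TPM in animal 2 and 40.5 TPM in animal 1, a ratio of 1.32 (1.27 to 1.37), while its relative Ppargc1b had 13.6 TPM in animal 2 and 15.7 TPM in animal 1, a ratio of 0.806 (0.753 to 0.864). All 4 passed the exact test with no fold minimum. The receptors Esrra (68.5 TPM in animal 2 and 55.6 TPM in animal 1), Ppara (26.7 TPM in animal 2 and 21.7 TPM in animal 1), Esrrg, Rxra and Ppard did not pass. Angptl4, another fasting-response gene, counted 207 reads in animal 2 and 242 in animal 1, for a ratio of 0.811 (0.670 to 0.980) that did not pass after adjustment.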

How the data were processed

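Total RNA sequencing of heart was deposited as 1 gene table and 2 transcript tables per library, on mm10 with the M21 annotation per the deposited readme. The gene table and the first transcript table hold expected counts with RSEM's columns, per the file headers: estimated reads that were deposited without normalisation. Their deposited TPM sums over every entry, spike-ins too. The second transcript table, called the second quantification, has kallisto's columns per the file headers, with the estimated counts and TPM that the authors drew from a read file. Effective lengths were 99 bases below the length in the first tables, and 327 in animal 2 and 326 in animal 1 in the second. For the aligner, versions, filters and the use of strand: not given in the sources used here. The mm10 sequence is that of C57BL/6J, so reads from CAST/EiJ alleles were quantified against the other parent's sequence.

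The 40 genes, the other lists and the named-gene rule were chosen with earlier results of these data known. The rule gives in full the 2 highest genes of each step, every one of the 40 passing the test with or without the fold minimum or over 2-fold apart between quantifications; genes of the wider pathway are named from 10 TPM or when they pass the 2-fold test. Angptl4, Acaca and Acsm5 were named outside it, after their values were seen. Tmlhe and Mmut of the wider list matched no gene name, and a few genes of the wider list or beside the pathway genes are not reported here. Expected counts were rounded, and 26248 entries without a gene name, holding 2 reads in animal 2 and 4 in animal 1 (4.76e-06% and 9.50e-06% of reads), were left out. Genes with at least 20 reads over both animals (16133) were tested two-sided with the exact binomial distribution, at library sizes scaled by TMM (edgeR 4.0.16, R 4.3.3), with Benjamini-Hochberg adjustment over all of them, called at an adjusted p of at most 0.05 and at least 2-fold. With 1 library per animal no quasi-likelihood fit can be made, so the test sees counting error alone. Intervals are exact 95% intervals of the same share, with a prior count of 0.5 for log2 ratios. As reads have no molecular identifiers, intervals and the limit of 3 reads cover counting error only. The test was tried on simulated counts with counting error alone and planted changes above 2-fold. That trial held no variation between animals, so it cannot show how calls of small ratios would fare with such variation. Scripts used Python 3.11.15, SciPy 1.17.1, pandas 2.3.3 and matplotlib 3.10.9. Alternatives were total counts, DESeq2 1.42.0 size factors, no count filter, no fold minimum, the second quantification, its effective lengths, TPM over nuclear protein-coding genes and each animal alone.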

Additional observations from a re-analysis of the deposited data

How the results depend on the processing

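The count of 0 genes at least 2-fold apart held under total counts, DESeq2 size factors, no count filter and the second quantification, and became 10 with no fold minimum. That count of 10 was 11 with DESeq2 size factors, 7 with no count filter, 11 in the second quantification and 27 by total counts, which also moved the median log2 ratio of the 40 genes to 0.092, where all tested genes had a median of 0.077. By total counts 10 log2 ratios turned above 0: Acsl1 (0.067), Acadvl (0.043), Hadh (0.059), Decr1 (0.075) and Etfa (0.077), which passed the test there, and Acad11, Echs1, Eci2, Acot13 and Mlycd (0.046 to 0.069), which did not; 4 signs turned in the second quantification. Without a count filter Acsl5, Acadvl and Slc27a1 no longer passed. The summed level was 12652 TPM in the second quantification, 7236 TPM with its effective lengths and 22984 TPM over nuclear protein-coding genes alone, and 8773 to 10418 TPM with 1 animal left out. The log2 ratio of Acadl over Acadm turned to 0.16 in the second quantification. Transcripts of both genes that differed between the tables are given with the transcript shares. Why the tables differ was not tested. The count of 26 genes in the top 5% was the same in every setting run. No paired analysis was possible because there is 1 group. With 2 animals the SD rests on 1 difference, and Acsl3, at 426 reads over both animals, had the widest interval of the ratio.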
